A study of Mus musculus with 36 samples.

Results

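In mouse embryonic stem cells (mESCs), 138 mRNAs had a half-life under the antibiotic G418 that was at most 1/2 of the half-life in control cells and also at most 1/2 of the half-life under the antibiotic puromycin. They were selected on these measured half-lives from the 5834 transcripts with an average of at least 500 and under 10000 reads, out of 10325 transcripts with half-lives. The 138 mRNAs made up 2.37% of the transcripts in this read window and 1.34% of all transcripts. Half-lives were measured by SLAM-Seq in E14Tg2a cells, a 129/Ola line of mESCs kept in 2i medium, which holds the cells in an undifferentiated state. All cells were labelled with 100 µM 4-thiouracil for 24 h, with a medium exchange every 8 h. They were then moved into 2i medium with 10 mM uridine and no antibiotic (control), 0.1 µg/mL G418 or 0.1 µg/mL puromycin, and harvested after 0, 1, 2, 4, 8 or 24 h. Each condition had 12 libraries, 2 replicates at each of the 6 times, which makes 36 libraries in all.

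The amount of an mRNA in a cell is set by its synthesis and its decay, and decay is coupled to translation, since the ribosome's passage over the codons affects how soon an mRNA loses its poly(A) tail and is degraded. G418 is an aminoglycoside that binds the ribosome's decoding site and makes it accept wrong tRNAs, so that wrong amino acids enter the protein. Puromycin mimics the end of a charged tRNA and releases unfinished chains from the ribosome, so the antibiotics disturb translation by different routes.

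The authors deposited 1 half-life in minutes for each transcript and condition, with both replicates combined, and the average number of reads on each transcript. No half-life therefore has a replicate error, differences between conditions could not be set against the spread of replicates, and no p-value is given. Counts are of transcripts, which are not replicates of a treatment. The 3 pairwise comparisons of conditions also share libraries, since each condition enters 2 of them. The average read numbers on the listed transcripts added up to 14634046 reads per library, of which the 138 mRNAs took 156340 (1.07%). The depth of a single library and the number of reads with conversions, on which the precision of a half-life rests, are unknown.

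Most of the 138 mRNAs were long-lived in control and under puromycin and short-lived under G418, and the rule used all of these half-lives. In control, their lowest, median and highest half-lives were 54.9, 301 and 1238 min, and the middle of the distribution (quartiles) spanned 208 to 528 min. Under G418 they were 23.2, 99.9 and 488 min, with the quartiles at 69.6 and 155 min. Under puromycin they were 55.7, 300.5 and 2299 min, with the quartiles at 205 and 522 min. The medians in control and under puromycin were thus nearly equal, and the G418 median lay below the lower quartile of either, although the ranges of the 3 conditions overlapped. The transcripts of the whole read window had medians of 179, 171 and 187 min in control, G418 and puromycin. The median member stood at percentile 84.1 of the window in control, 82.4 under puromycin and 10.6 under G418. The selection therefore held transcripts that mostly lay in the upper part of the window's half-lives in 2 conditions and in the lower part in 1.

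**Figure D1:**
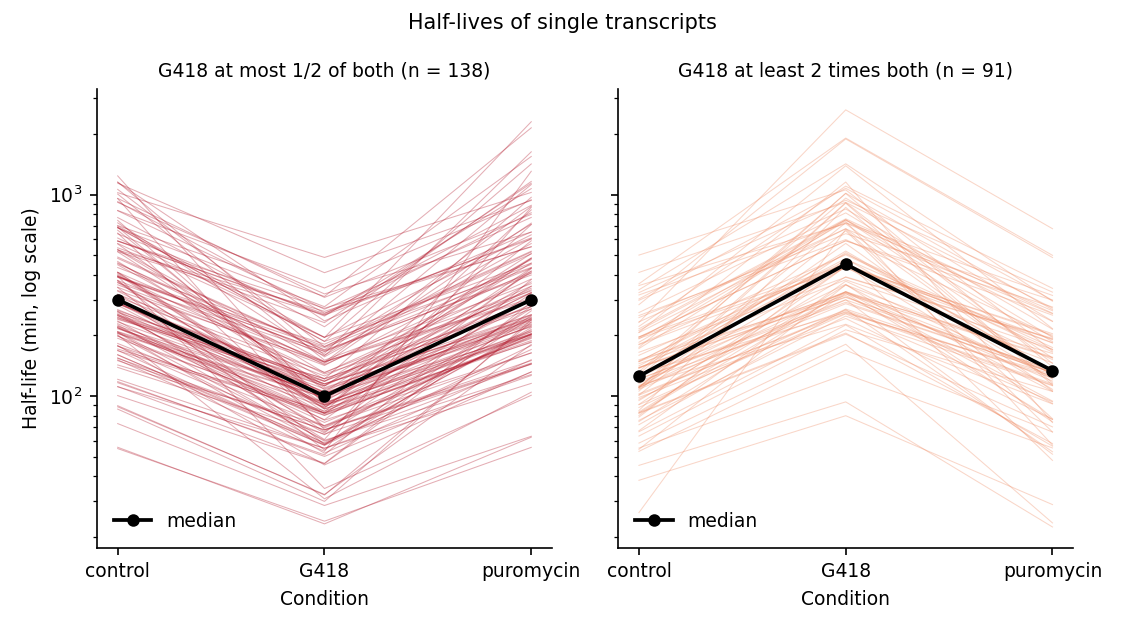
Half-life in minutes on a log axis in control, G418 and puromycin, with 1 thin line per transcript and the median in black. The left panel shows the 138 mRNAs with a G418 half-life at most 1/2 of both others (medians 301, 99.9 and 300.5 min) and the right panel the 91 transcripts with a G418 half-life at least 2 times both (medians 126, 451 and 134 min).

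By class of half-life, 91 of the 138 mRNAs lasted at least 240 min in control, 52 of them under 480 min and 39 from 480 min to 24 h. In the window, 22.8% and 4.44% of transcripts fell in these classes in control. Under G418, 25 of the 138 mRNAs (18.1%) had a half-life under 60 min, which is shorter than the time from the start of the chase to the first harvest after it, against 1.39% of the window. Another 63 mRNAs (45.7%) lay from 60 to under 120 min under G418, against 18.5% of the window, 14 (10.1%) from 240 to under 480 min, against 18.8%, and 1 (0.725%) from 480 min to 24 h, against 2.37%. Under puromycin, 4 of the 138 mRNAs (2.9%) had a half-life longer than the 24 h chase, against 0.309% of the window, and 1 (0.725%) had a half-life under 60 min, against 1.53%. In all 3 conditions together, 109 of the 138 mRNAs (79%) had half-lives from 1 to 24 h, the span that the harvests covered, against 5599 of the 5834 transcripts of the window, so a larger share of the 138 mRNAs had a half-life outside that span. The rule used these half-lives, and the shares describe the selection.

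Taken as exponential decay, the median half-life of the 138 mRNAs leaves 75.9% of the labelled mRNA after 2 h of chase in control, 43.5% under G418 and 75.8% under puromycin. After 8 h, 33.1% is left in control, 3.58% under G418 and 33.1% under puromycin. A member with these medians would thus have lost nearly all of its label by the 8 h harvest under G418 and kept part of it in the other conditions. As a rate, the median was 0.138 per h in control, 0.416 per h under G418 and 0.138 per h under puromycin. Over the window the median rates were 0.232, 0.243 and 0.222 per h in the same order.

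The ratio of G418 to control half-lives over the 138 mRNAs had a median of 0.362, or -1.47 on the log2 scale, and ran from 0.0714 to the limit. The ratio of G418 to puromycin had a median of 0.359, or -1.48 on the log2 scale, and a lowest value of 0.0408. Both ratios were used to choose the mRNAs and nothing was read from them. Among all transcripts of the window, the G418 half-life was at most 1/2 of control for 477 transcripts (8.18%) and at most 1/2 of puromycin for 522 (8.95%), and by the rule all 138 mRNAs were in both counts. The opposite differences, a G418 half-life at least 2 times that of control or of puromycin, held for 4.7% and 4.42% of the window and by the rule for 0 of the 138 mRNAs. Over the window, the median log2 ratio to control was -0.09 and that to puromycin -0.15, so the centre of the window was itself shifted toward shorter half-lives under G418.

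**Figure D2:**
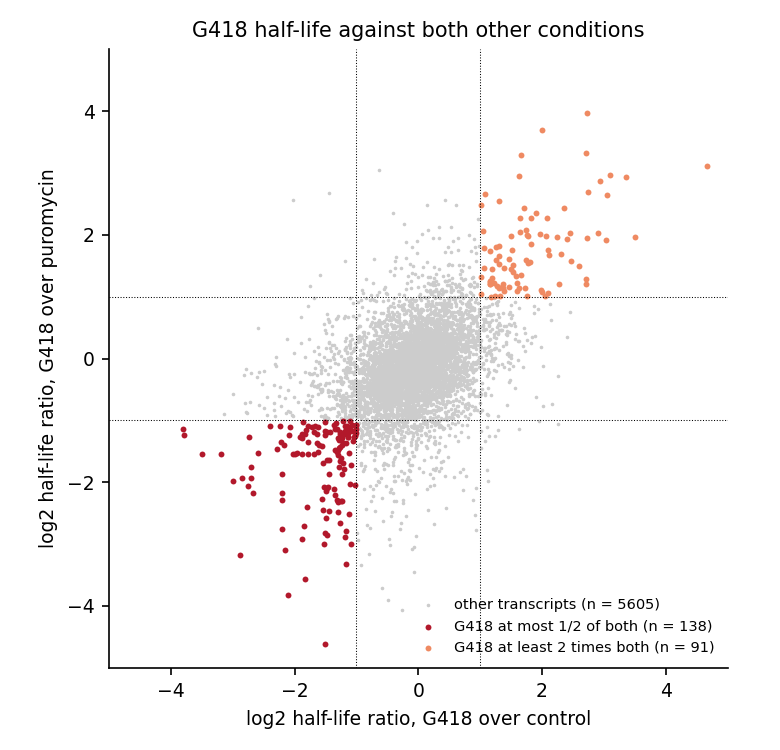
Log2 ratio of half-lives of G418 over control (horizontal axis) and G418 over puromycin (vertical axis) for the 5834 transcripts of the read window, 1 point each, with dotted lines at the limit of 2-fold. The 138 mRNAs with a G418 half-life at most 1/2 of both fill the lower left corner and the 91 with the opposite pattern the upper right. Both axes share the G418 half-life.

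The control and puromycin half-lives of the 138 mRNAs, both used by the rule, are set beside each other as a description. Puromycin over control had a median log2 ratio of 0.06 and an SD of 0.85 in the 138 mRNAs, and of 0.05 and 0.74 in the window. Puromycin gave the longer half-life for 76 of the 138 mRNAs (55.1%, beside 53.2% of the window) and control for 62 (44.9%, beside 46.8%). Both half-lives lay within 1.5-fold of each other for 55.1% of the 138 mRNAs, against 65% of the window. At the wider limit of 2-fold, the puromycin half-life was at least 2 times that of control for 20 mRNAs (14.5%, beside 8.84% of the window) and at most 1/2 of control for 9 (6.52%, beside 6.63%). Since the rule compared the G418 half-life with both, no reading was made of these values. The SD of this ratio also differed with reads, and was 0.86 over all transcripts from 500 to under 1000 reads, where 88 of the 138 mRNAs lay.

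Those 9 mRNAs had a half-life under puromycin that was also at most 1/2 of control, so a description as shortened by G418 only did not hold for them. Their median half-life was 745 min in control, 211 min under puromycin and 89.9 min under G418. The 20 mRNAs with a puromycin half-life at least 2 times control had medians of 261 min in control, 120.02 min under G418 and 869 min under puromycin. These 20 fell into 2 patterns at once, with puromycin the longest by 2-fold and G418 the shortest by 2-fold. The 9 mRNAs above also fell into 2 patterns, with control the longest by 2-fold. The other 109 mRNAs had control and puromycin half-lives under 2-fold apart, with medians of 291 min in control, 101 min under G418 and 278 min under puromycin.

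The same limit was applied to the opposite pattern and to the other conditions to show how often 1 condition stood apart from the other 2. A G418 half-life at least 2 times both others was found for 91 transcripts (1.56% of the window), so that of 229 transcripts with G418 apart, 60.3% were shorter (exact Clopper-Pearson 95% interval 53.6 to 66.6%, which covers counting error over transcripts only). With control as the condition apart, 112 transcripts (1.92%) had a control half-life at most 1/2 of both antibiotics and 186 (3.19%) one at least 2 times both. With puromycin apart, 87 transcripts (1.49%) were at most 1/2 of both others and 244 (4.18%) at least 2 times both. The count of 138 was thus the highest of the 3 counts of shorter half-lives and was 26 above the count for control, while it was below both the control and the puromycin counts of longer half-lives. In control 37.6% of the transcripts apart were shorter (32.1 to 43.4%) and under puromycin 26.3% (21.6 to 31.4%). In all, 795 transcripts (13.6%) showed at least 1 of the 6 patterns and 5039 (86.4%) showed none.

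For the 112 and 186 transcripts with control apart, a difference shared by both antibiotics and scatter of the control half-lives cannot be told apart from 1 half-life per condition. For the 138 mRNAs, a difference made by G418 and scatter of the G418 half-lives cannot be told apart for the same reason. When each condition was divided by its median half-life over the window, which takes out any shift common to all transcripts, 112 transcripts were at most 1/2 of both others under G418 and 107 at least 2 times both, beside 108 and 190 for control and 122 and 187 for puromycin. The share of shorter half-lives was then 51.1% (44.3 to 57.9%) for G418, 36.2% for control and 39.5% for puromycin. The surplus of shorter over longer half-lives under G418 was therefore 47 transcripts with half-lives as deposited and 5 after centring, and the count for G418 shorter was no longer the highest of the 3.

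The balance between shorter and longer G418 half-lives differed between fold limits. At a limit of 1.5-fold, 509 transcripts were shorter and 259 longer under G418. At 2.5-fold the counts were 53 and 48, at 3-fold 17 and 35, and at 4-fold 8 and 12. The share of shorter half-lives under G418 was thus 66.3% at 1.5-fold, 60.3% at 2-fold, 52.5% at 2.5-fold, 32.7% (20.3 to 47.1%) at 3-fold and 40.0% (19.1 to 63.9%) at 4-fold. With half-lives as deposited, the direction of the difference in counts turned between 2.5-fold and 3-fold. With each condition divided by its median it turned between 2-fold (112 and 107) and 2.5-fold, where 44 transcripts were shorter and 57 longer (43.6% shorter). Among the 138 mRNAs, the margin, which is the smaller of control over G418 and puromycin over G418, had a median of 2.38 and was under 2.5 for 85 (61.6%). In the 91 transcripts of the opposite pattern the margin, the smaller of G418 over control and G418 over puromycin, had a median of 2.62 and was under 2.5 for 43 (47.3%). A margin of at least 3 was reached by 17 of the 138 mRNAs (12.3%) and by 35 of the 91 (38.5%).

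**Figure D3:**
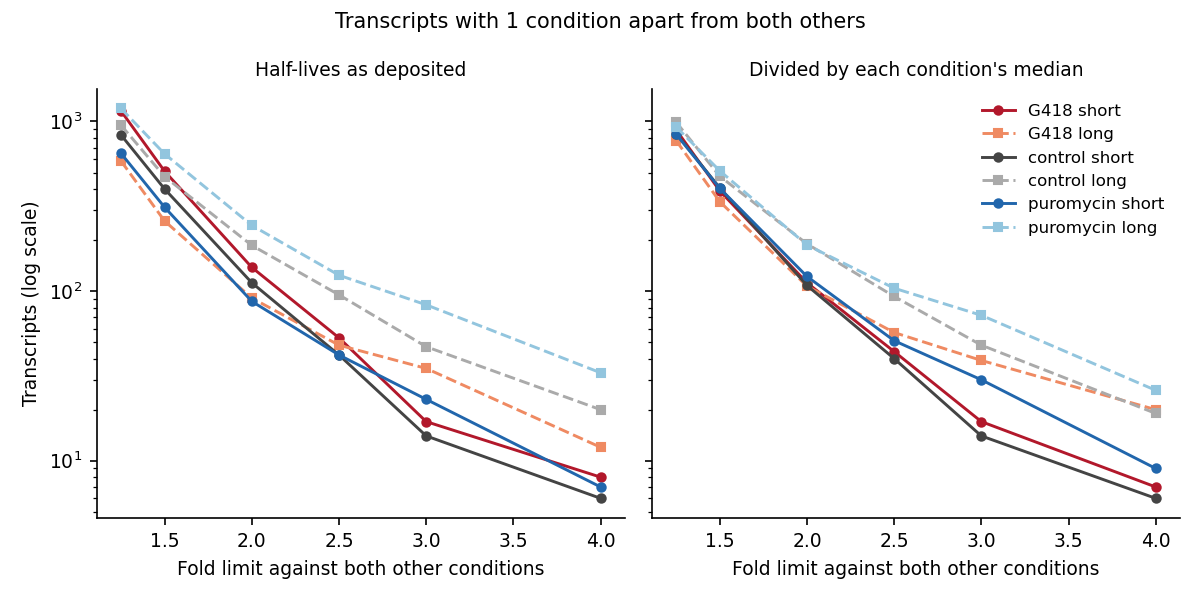
Number of transcripts (log axis) with 1 condition shorter (solid lines, circles) or longer (dashed lines, squares) than both others, by fold limit from 5/4 to 4, with half-lives as deposited (left) and divided by each condition's median (right). With half-lives as deposited, the line for G418 shorter lies above that for G418 longer up to 2.5-fold (53 and 48 transcripts) and below it at 3-fold (17 and 35), while after division by the medians it lies below already at 2.5-fold (44 and 57).

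The 138 mRNAs had fewer reads than the window as a whole. Their average read numbers lay between 504 and 8412, with the median at 813 and the quartiles at 598 and 1242, while the median of the window was 1052 and its quartiles 704 and 1802. Under 1000 reads stood 88 of the 138 mRNAs (63.8%), against 47.1% of the window. The other patterns had low read numbers as well: the median was 798 in the 91 transcripts of the opposite pattern, 724 and 800 for control shorter and longer, and 656 and 823 for puromycin shorter and longer. The transcripts with none of the 6 patterns had a median of 1102 reads.

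The share of transcripts in the selection was highest at the lowest reads of the window. It was 3.2% of 2748 transcripts from 500 to under 1000 reads (88 mRNAs), 2.1% of 1813 from 1000 to under 2000 (38 mRNAs), 0.874% of 1030 from 2000 to under 5000 (9 mRNAs) and 1.23% of 243 from 5000 to under 10000 (3 mRNAs). With half-lives as deposited, the opposite pattern was found for 63, 24, 3 and 1 transcripts in the same bins, so in each bin the shorter half-lives were the more numerous. The last of these bins held few transcripts of either kind. After division by the medians the counts over the window were 112 and 107, and this was not repeated by bin. Outside the window, under 500 reads, the rule gave 270 transcripts (6.24%) and its opposite 241 (5.57%). At 10000 reads and over it gave 6 of 161 transcripts (3.73%) and its opposite 0. The scatter between conditions dropped with reads up to 10000: the SD of the log2 ratio of puromycin over control, a comparison without G418, was 1.17 under 500 reads, 0.86 from 500 to under 1000, 0.66 from 1000 to under 2000, 0.59 from 2000 to under 5000, 0.51 from 5000 to under 10000 and 0.59 at 10000 and over.

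**Figure D4:**
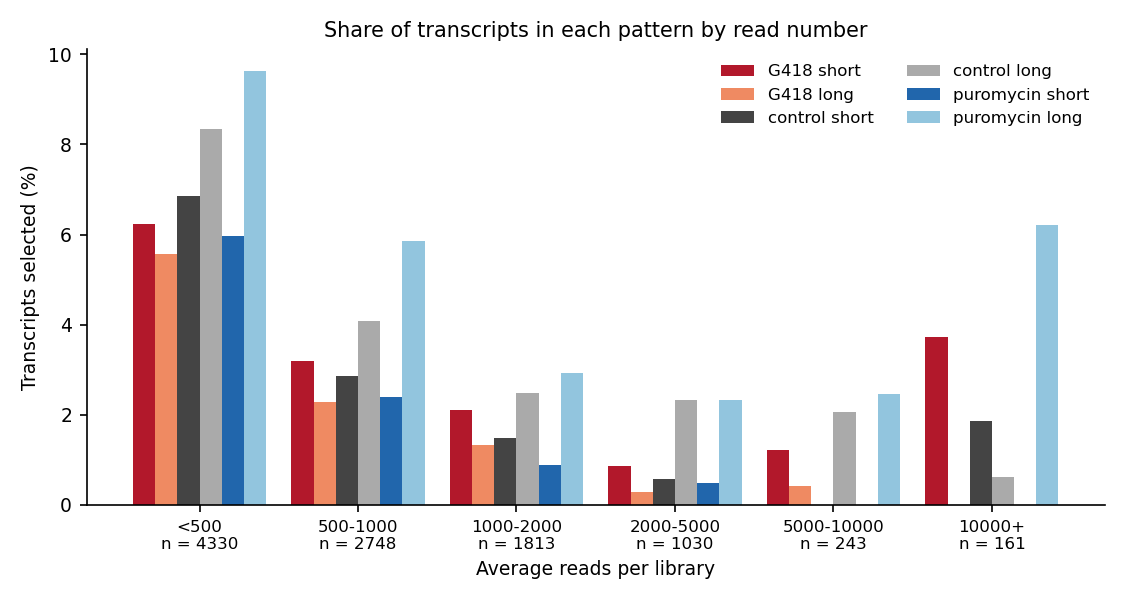
Percent of the transcripts in each bin of average reads per library that had 1 condition at most 1/2 of (short) or at least 2 times (long) both others, with the number of transcripts under each bin; bars start at 0. The share with G418 short is 6.24% under 500 reads and 0.874% from 2000 to under 5000 reads, and the other patterns drop over the same bins. At more reads, the share with G418 short is 1.23% from 5000 to under 10000 and 3.73% at 10000 and over.

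Median half-lives of the members were higher in the bins with more reads, of which the upper 2 held 9 and 3 mRNAs. Whether all transcripts of the window differed with reads in the same way was not tested. From 500 to under 1000 reads, their medians were 287 min in control, 91.0 min under G418 and 275 min under puromycin, and from 1000 to under 2000 reads 314, 112 and 312 min. In the bin from 2000 to under 5000 reads the 9 mRNAs had medians of 589, 195 and 798 min, and the 3 from 5000 to under 10000 reads medians of 834, 344 and 1025 min in the same order. Single members did not follow this order: the lowest control half-life was 73.0 min from 500 to under 1000 reads, 54.9 min from 1000 to under 2000 and 89.6 min from 2000 to under 5000. The median margin was 2.42, 2.33, 2.58 and 2.25 from the lowest to the highest of the 4 bins. A G418 half-life of at least 240 min was found for 15 of the 138 mRNAs, with a median of 702 min in control, 273 min under G418 and 813 min under puromycin, and a median of 1599.6 reads. At the other end, the 25 mRNAs with a G418 half-life under 60 min had medians of 151, 51.1 and 178 min and 749.8 reads. Their control and puromycin medians were below those of the window (179 and 187 min), and their low G418 values were set by the choice of these 25 mRNAs.

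The 138 mRNAs were unevenly spread over the half-lives in the conditions used for comparison. When the window was divided into quartiles of the geometric mean of the control and puromycin half-lives, 91 of the 138 mRNAs came from the quartile with the longest half-lives, from 249 to 1267 min (6.24% of its 1459 transcripts). The other quartiles gave 25, 15 and 7 mRNAs, the last from half-lives of 26.7 to 139 min (0.48%). The opposite pattern was spread the other way, with 53 of the 91 transcripts in the quartile with the shortest half-lives. With the other conditions apart, the highest count of shorter half-lives was again in the quartile with the longest half-lives: of the 112 transcripts with a shorter control half-life, 66 were in the quartile with the longest half-lives under G418 and puromycin, and of the 87 with a shorter puromycin half-life, 48 were in the quartile with the longest in control and under G418, with 13 in each of the other quartiles. Longer control half-lives were found for 76, 29, 30 and 51 transcripts from the shortest to the longest quartile and longer puromycin half-lives for 86, 47, 45 and 66, so these patterns had a second high in the longest quartile that the 91 transcripts with a longer G418 half-life (53, 12, 14 and 12) did not have. The quartiles were made from half-lives that the rule used, so these counts are a description of the selection only. The cause of the uneven spread was not tested.

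**Figure D5:**
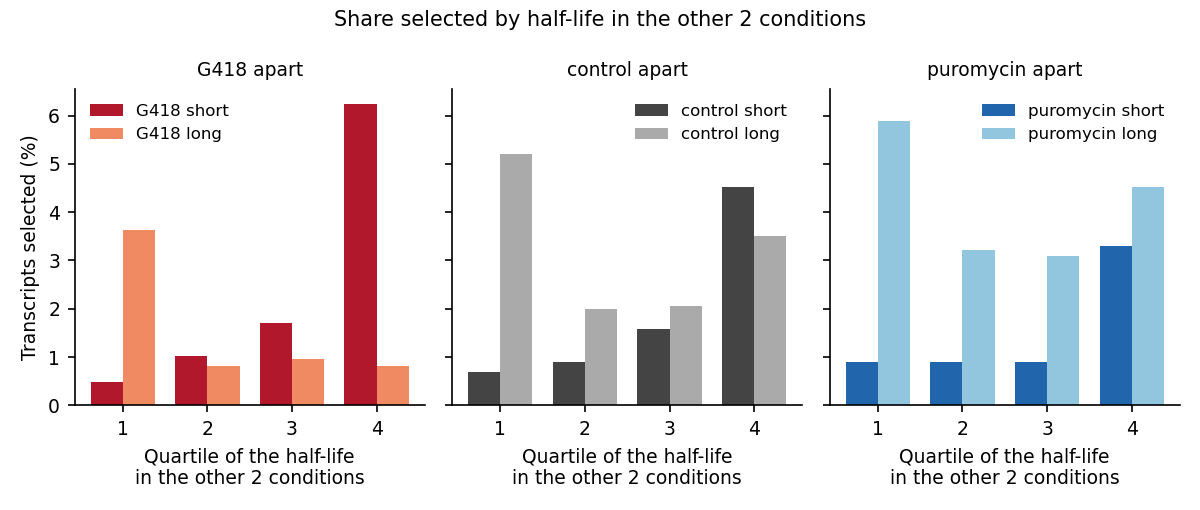
Percent of transcripts with a shorter (at most 1/2 of both others) or longer (at least 2 times both) half-life in 1 condition, by quartile of the geometric mean half-life in the other 2 conditions, from shortest (1) to longest (4), with bars from 0. For G418 shorter, the percent is 0.48% in quartile 1 and 6.24% in quartile 4, and the highest bar for shorter half-lives is in quartile 4 in each of the 3 panels.

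The members can also be placed by the half-life under G418 itself, which the rule used, so the shares describe the selection and nothing was read from them. Of the 81 transcripts of the window with a G418 half-life under 60 min, 25 were in the selection (30.9%), against 5.82% of those from 60 to under 120 min, 1.02% of those from 120 to under 240 min and 1.27% of those from 240 to under 480 min. For control, 19 of the 80 transcripts under 60 min (23.8%) had a control half-life at most 1/2 of both others, and for puromycin 30 of 89 (33.7%). In each condition most of the half-lives under 60 min were thus not in the pattern.

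The transcript identifiers were not paired with gene names in the deposited table, and 0 of them were found in the annotation used here, so the 138 mRNAs are described by their half-lives and reads. The largest margin was that of uc012bhb.2, with a half-life of 689.9 min in control, 93.1 min under G418 and 839.5 min under puromycin. Control over G418 was 7.41 for it, and the log2 ratios of G418 were -2.89 over control and -3.17 over puromycin. It averaged 509 reads per library, or 18310 over all libraries, close to the lower limit of the window. The next was uc009map.2, with 308 min in control, 66.5 min under G418 and 323 min under puromycin, and log2 ratios of -2.21 and -2.28. Its puromycin half-life was 1.05 times that of control, and it averaged 1331 reads, above the median of the window. From the second to the tenth rank the margin ran from 4.63 to 3.80, and the 10 mRNAs averaged between 509 and 2981 reads.

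In the opposite pattern the largest margin was that of uc009pgx.1, with 26.4 min in control, 671 min under G418 and 77.2 min under puromycin, at 1045 reads. Its control half-life was under the 1 h of the first harvest after the start. The next, uc007unf.2, had 106 min in control, 907 min under G418 and 116 min under puromycin, at 1121 reads. Both margins, 8.69 and 7.81, were above the largest margin of the 138 mRNAs.

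The 5 members with the most reads are described by rank, and their numbers of reads with conversions are unknown. The first, at 8412 reads, had 702 min in control, 312 min under G418 and 2144 min under puromycin, the last above the 24 h of the chase. The second, at 5787 reads, had 1022 min in control, 488 min under G418 and 1025 min under puromycin. The third, at 5416 reads, had 834, 344 and 942 min in the same order. All 3 were among the 10% of the window with the longest half-lives also under G418, at percentiles 90.5, 97.6 and 93.2, so that their G418 half-lives were short only relative to their own values in the other conditions. The fourth and the fifth, at 4116 and 3568 reads, had 410 and 253 min under G418 and at least 589 min in control and under puromycin. Under G418 the fourth was also in this 10%, at percentile 96.0, and the fifth was at percentile 81.7. Margins in these 5 mRNAs ran from 2.10 to 2.42, below or near the median of the 138.

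Outside the window, 6 transcripts with at least 10000 reads met the half-life limits. The one with the most reads, 80728 on average, had 1012 min in control, 494 min under G418 and 1249 min under puromycin. Across the 6, G418 half-lives ran from 296 to 849 min and margins from 2.04 to 3.49. In 3 of the 6, a half-life used for comparison was longer than the 24 h chase: 1 had 2013 min in control and 1840.1 min under puromycin, 1 had 3379 and 1734 min, and 1 had 1499 min under puromycin.

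In 5 members the control and puromycin half-lives were closest to each other. The closest pair, 1022 and 1025 min, belonged to the mRNA with the second most reads. The other 4 had 334 and 333 min, 252 and 253 min, 54.9 and 55.7 min, and 198 and 195 min in control and under puromycin, with G418 half-lives of 147, 109, 24.0 and 80.4 min. The margins of these 5 mRNAs ran from 2.10 to 2.43. The one with 54.9 min in control is among the shortest-lived transcripts of the window in all conditions, and its half-lives are all shorter than the 1 h before the first harvest after the start.

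Just inside the limit, 3 mRNAs had margins of 2.003, 2.003 and 2.009. Their half-lives were 143, 71.3 and 164 min in control, G418 and puromycin for the first, 245, 122 and 270.0 min for the second and 234, 101 and 202 min for the third. Just outside it, 3 transcripts had margins of 1.999, 1.993 and 1.988. The first of these had 121, 60.6 and 143 min, the second 501, 179.9 and 359 min and the third 544, 273 and 570.3 min in the same order. The values ran across the limit without a gap.

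The authors labelled mRNAs as G418-sensitive by a related rule, a G418 half-life at most 1/2 of that under puromycin with control lying between them. In the window, 353 transcripts (6.05%) met it. Of these, 76 (21.5%) were among the 138 mRNAs, since the other 277 had a G418 half-life above 1/2 of control. The remaining 62 of the 138 had control as the longest half-life. Their medians were 385 min in control, 99.5 min under G418 and 239.8 min under puromycin, while the 76 had medians of 249, 101 and 393 min.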

How the data were processed

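SLAM-Seq reads of the 36 libraries were aligned by the authors to the mouse transcriptome (mm10) with Bowtie2, whose version is not given in the sources used here. The submitters' processing notes also name GRCm39, with no role. Custom scripts of the authors counted reads with U to C changes, and an exponential was fitted to their share over the chase. The authors deposited 1 half-life in minutes per transcript and condition and average read numbers, which multiplied by 36 were whole within 0.01 for 100% of transcripts. How replicates were combined and any filter are not given in the sources used here.

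The members and lists were chosen with earlier results of these data known. Half-lives were used without rescaling. A condition was called apart at a 2-fold difference from both others, and the 6 patterns were counted with no test. Shares have exact Clopper-Pearson 95% intervals. The identifiers printed are the 2 with the largest margin in each direction under G418, and other members are given by rank: the 5 with the most reads, the 5 with the closest control and puromycin half-lives and the 3 on each side of the limit. Alternatives were other fold limits, other read limits, limits on half-life and centring on the median. Fold limits of 5/4, 2.5 and 4 were chosen after seeing the data. The counting code was run on simulated half-lives with planted differences and little scatter, which checks the code only. Tables were handled with pandas 2.3.3 and numpy 2.4.6 in python 3.11.15, intervals came from scipy 1.17.1, and plots were drawn with matplotlib 3.10.9.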

Additional observations from a re-analysis of the deposited data

How the results depend on the processing

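Counts are given in the order G418 shorter, G418 longer, control shorter, control longer, puromycin shorter and puromycin longer than both other conditions, and were 138, 91, 112, 186, 87 and 244 at the limit of 2-fold. At 1.5-fold they were 509, 259, 400, 473, 312 and 644, and at 3-fold 17, 35, 14, 47, 23 and 83. At the limits chosen after seeing the data they were 1154, 585, 833, 951, 649 and 1193 (5/4-fold), 53, 48, 42, 95, 42 and 124 (2.5-fold), and 8, 12, 6, 20, 7 and 33 (4-fold). The share of shorter half-lives among transcripts with G418 apart was 60.3% at 2-fold, 52.5% at 2.5-fold, and turned below 50% at 3-fold (32.7%) and 4-fold (40.0%); the cause was not tested. With no limit on reads the counts were 414, 332, 412, 548, 345 and 671, over 10325 transcripts. From 1000 to under 10000 reads they were 50, 28, 33, 74, 21 and 83, over 3086 transcripts. The share with G418 shorter also differed with reads. From the lowest to the highest bin of reads it was 6.24%, 3.2%, 2.1%, 0.874%, 1.23% and 3.73%. With each condition divided by its median the share was 51.1%, from counts of 112 and 107. Half-lives from 1 to 24 h in all conditions left 55 transcripts with puromycin shorter, and moved no other of these counts by more than 1.5 times. Half-lives of at most 24 h moved none by as much. No paired analysis was possible because the table gives 1 half-life per transcript and condition with replicates combined, and leaving out a replicate was not possible for the same reason. Precision is limited by the reads with conversions behind each half-life, which are unknown.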
